A study of Arabidopsis thaliana with 43 samples.

Results

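The membrane desaturases FAD2, FAD3, FAD4, FAD5, FAD6, FAD7 and FAD8, the soluble desaturase SSI2 and the heat-inducible lipase HIL1 were followed in leaves of Arabidopsis thaliana seedlings through slow heat, sudden heat and recovery. The 9 loci are FAD2 (AT3G12120, chr3:3860251-3863250), FAD3 (AT2G29980, chr2:12781524-12785190), FAD4 (AT4G27030, chr4:13571813-13573070), FAD5 (AT3G15850, chr3:5358601-5361185), FAD6 (AT4G30950, chr4:15056975-15059846), FAD7 (AT3G11170, chr3:3499537-3502452), FAD8 (AT5G05580, chr5:1664040-1666531), SSI2 (AT2G43710, chr2:18119873-18122889) and HIL1 (AT4G13550, chr4:7870995-7877059), with positions in the TAIR10.1 assembly. They were picked by locus number from the 33602 loci in the count tables, and all 9 had enough counts to be tested. Polyadenylated RNA of Col-0 seedlings was sequenced in 43 libraries from 22 plates, with 1 plate per batch at each of 11 time points, and reads from tubes of the same plate were added together. T3 of batch 1 had 1 library, and every other plate 2. A plate is a pool of seedlings, so n = 2 plates at every time point. All plants grew at 22 °C with a daily light period, and none carried a mutation or transgene by the labels.

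Plants to be acclimated were warmed slowly on day 12, from dawn onwards. T2 was sampled 3 h after lights on at 38 °C, T3 after 6 h at 45 °C, and T4 after 7.5 h, still at 45 °C. T5 on day 14 and T6 on day 16 were acclimated plants back at 22 °C, taken 7.5 h after lights on. T7 was taken from acclimated plants on day 16 at the end of a sudden shock at 45 °C, 9 h after lights on, and T8 from acclimated plants on day 18. T10 was taken from non-acclimated plants at the end of the same shock, and T11 from non-acclimated plants on day 18. T1, at dawn of day 12, and T9, non-acclimated plants on day 16 before the shock, are the unheated samples. T2, T3 and T4 differ from T1 in hours of light, which cannot be told apart from heat in comparisons with T1. T4 (day 12) and T5 (day 14) differ from T9 (day 16) in age, which cannot be told apart from heat in comparisons with T9. T7 and T10 (9 h after lights on) differ from T6 and T9 (7.5 h) in hours of light. T8 and T11 (day 18) differ from T6 and T9 (day 16) in age. In those comparisons hour or age cannot be told apart from the shock. The protocol text assigns T7, T8 and T9 in more than one way, and the roles here follow the sampling temperature labels.

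Desaturases place double bonds in fatty acids, and the number of double bonds helps to set how fluid a membrane is. SSI2 acts on stearate in the plastid stroma, FAD2 and then FAD3 act in the endoplasmic reticulum on oleate and linoleate, and FAD6 and then FAD7 or FAD8 carry out the same steps in the plastid. FAD5 and FAD4 introduce the first double bond into palmitate on the galactolipid monogalactosyldiacylglycerol and on phosphatidylglycerol. HIL1 is known from Arabidopsis as a plastid lipase that takes polyunsaturated fatty acids from monogalactosyldiacylglycerol in heat, and plants kept warm are known to carry less trienoic fatty acid in their membranes.

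FAD2, FAD3, FAD6, FAD7 and FAD8 share histidine boxes that hold the iron atoms of the active site. A stretch of 45 coding bases around the first box is shown for each of them, read from RefSeq's TAIR10.1 assembly, because the reads of these loci can be told apart only where their sequences differ. Capitals mark the box, and the stretches of FAD3, FAD7 and FAD8 span an intron that is left out of the letters.
FAD2, chr3:3861402-3861446, minus strand: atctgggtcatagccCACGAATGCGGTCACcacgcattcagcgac
FAD3, chr2:12783994-12784661, minus strand: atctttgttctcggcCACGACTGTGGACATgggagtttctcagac
FAD6, chr4:15058585-15058629, minus strand: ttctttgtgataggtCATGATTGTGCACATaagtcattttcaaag
FAD7, chr3:3500430-3500774, plus strand: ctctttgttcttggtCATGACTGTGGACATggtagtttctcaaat
FAD8, chr5:1664781-1664919, plus strand: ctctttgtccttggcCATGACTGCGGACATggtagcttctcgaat
FAD7 and FAD8 match at 40 of these 45 bases, FAD3 and FAD7 at 38, and FAD2 and FAD7 at 21. Over the aligned coding sequence FAD7 and FAD8 are identical at 1100 of 1290 bases (85.3%), with a longest shared run of 87 bases. Reads within such runs may have been left out or assigned to either locus, so the values of FAD7 and FAD8 carry that uncertainty, whereas FAD3 and FAD7 share no run over 17 bases. FAD4 overlaps VPS22 on the opposite strand by 186 bases and FAD8 overlaps PAI2 by 61 bases, and because the counting's strand setting was not known here, reads of these overlaps could belong to either gene.

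A library held between 6355953 and 21304864 gene counts (median 9532451), and a plate between 12897149 and 27961281. Levels are given in TMM-CPM, the CPM unit after TMM scaling, which lines up the bulk of loci between plates. The 10 loci with the most counts held 17.6% to 20.6% of gene counts in the plates of T3 and T4 and 3.79% to 13.2% in the other plates, and their part in the effect of scaling was not tested. When counts were divided by library size alone, the median log2 change of all 20980 loci tested in T4 against T9 was -2.02, compared with -0.30 under TMM, and in T10 against T9 it was -0.69, compared with -0.04. The split of loci called higher and lower in T4 against T9 moved with it, from 3930 and 5082 under TMM to 710 and 15683 under library size scaling. A log2 change under TMM is therefore a change relative to most other leaf transcripts, and its difference from the median of all loci is given for the main results. In bulk leaf tissue, fewer cells of a type and less RNA per cell cannot be told apart. The 5 markers of leaf mesophyll were above 0 in every plate and summed to 4992 to 175480 TMM-CPM, 7 root markers to 2.39 to 53.9 and 5 seed and embryo markers to 0 to 42.8. HSP101, a chaperone used to check the heat labels, was between 5.86 and 44214 TMM-CPM.

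Per kilobase of exon, FAD2 and FAD6 had the highest median levels over the 22 plates, at 258.7 and 255.8 TMM-CPM per kb. SSI2 followed at 114.5, FAD7 at 105.4 and FAD5 at 94.0 TMM-CPM per kb. FAD3 (39.9), FAD4 (29.9) and FAD8 (23.3) were lower, and HIL1 stood last at 9.65 TMM-CPM per kb. These medians place FAD2 above 98.6% and HIL1 above 66.4% of the 20493 tested loci with an exon length. The highest plate exceeded the lowest 16.6-fold for FAD4 and 10.3-fold for HIL1, and between 3.48-fold (FAD3) and 6.54-fold (FAD5) for the others.

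**Figure D1:**
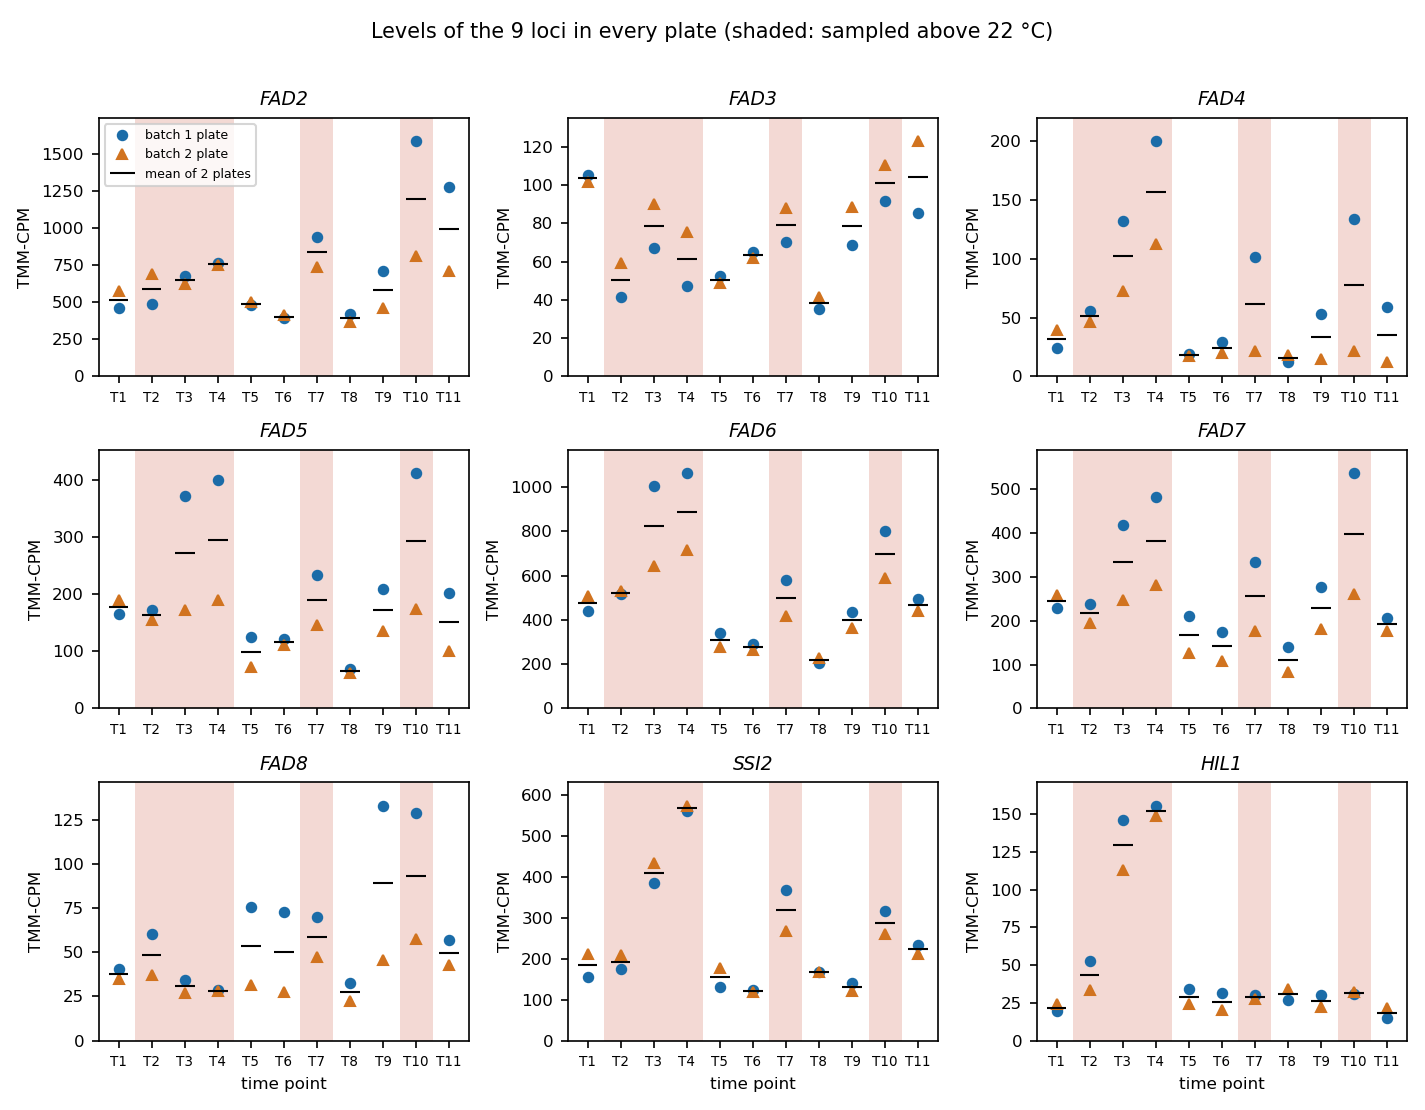
Level of each of the 9 loci (vertical axis, TMM-CPM, starting at 0) in every plate at T1 to T11 (horizontal axis), with circles for batch 1, triangles for batch 2, a bar for the mean of 2 plates and shading where plants were sampled above 22 °C. HIL1 stands apart at T3 and T4, between 113.1 and 155.6 TMM-CPM, and lies at or below 53.0 TMM-CPM in every other plate.

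HIL1 rose 5.85-fold in T3 and 6.91-fold in T4 against T1 during slow heating, and did not pass the test in the sudden shock. It had 53.0 and 33.4 TMM-CPM at T2, 145.8 and 113.1 at T3 and 155.6 and 148.8 at T4, against 19.3 and 24.5 at T1, in batches 1 and 2. The T3 and T4 plates lie above every other plate, those of T2 included. The log2 change was 2.55 ± 0.31 in T3 against T1 (SE, edgeR adjusted p = 3.7e-05) and 2.79 ± 0.31 in T4 against T1 (edgeR adjusted p = 1.8e-05), and both remained called and positive, at 0.97 and 0.96, under library size scaling. Against T9, the unheated plants of the same hour but of day 16, with 30.1 and 22.5 TMM-CPM, T4 was 2.54 ± 0.31 higher on the log2 scale (edgeR adjusted p = 3.6e-05). That is 2.84 above the median change of all loci; under library size scaling the change was 0.80 and the adjusted p of edgeR 0.051.

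From T5 to T11 HIL1 stayed between 15.1 and 34.1 TMM-CPM. It had 34.0 and 23.9 TMM-CPM at T5, 31.8 and 19.9 at T6, 30.3 and 27.5 at T7, and 27.2 and 34.1 at T8. In non-acclimated plants it had 30.7 and 32.1 TMM-CPM at T10, against 30.1 and 22.5 at T9, a log2 change of 0.27 ± 0.29 (edgeR adjusted p = 0.59) that turned to -0.38, also not called, under library size scaling. The sudden shock at T10 and the slow heating at T4 reached the same temperature, but differed in time spent in heat. HIL1 was lower at T10 than at T4, with a log2 change of -2.28 ± 0.31 (edgeR adjusted p = 0.00013), and of -1.18 under library size scaling. HIL1 counts were 32.3% and 52.9% of FAD7 counts at T4, against 10.8% and 12.4% at T9, a ratio within a plate that does not depend on scaling. At 22 °C it was also 16.2% and 19.0% at T5, 18.3% and 18.3% at T6, and 19.3% and 41.3% at T8, and the T8 plates overlap with those of T4.

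SSI2, the enzyme that makes oleate, rose under TMM in T3 and T4 against T1, T4 against T9, T7 against T6 and T10 against T9, although library size scaling ended these calls and turned both changes against T1 negative. It had 561.9 and 575.0 TMM-CPM at T4, against 139.7 and 121.9 at T9 and 156.6 and 211.5 at T1. The T4 plates were above all other plates. The log2 change was 2.12 ± 0.27 in T4 against T9 (edgeR adjusted p = 4.9e-05), 1.63 ± 0.27 in T4 against T1 (edgeR adjusted p = 0.00031) and 1.15 ± 0.26 in T3 against T1 (edgeR adjusted p = 0.0033). Under library size scaling the change against T9 was 0.38 and not called, and both changes against T1 turned to -0.20 and -0.41, also not called. Relative to the median change of all loci the differences against T1 were 1.90 for T4 and 1.40 for T3.

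In the sudden shock SSI2 reached 369.0 and 267.7 TMM-CPM at T7, against 123.6 and 120.1 at T6, and 316.6 and 259.6 at T10, against 139.7 and 121.9 at T9. Neither pair of groups overlapped. The log2 change was 1.39 ± 0.26 in acclimated plants (edgeR adjusted p = 0.011) and 1.14 ± 0.26 in non-acclimated plants (edgeR adjusted p = 0.021). SSI2 was lower at T10 than at T4, with a log2 change of -0.98 ± 0.26 (edgeR adjusted p = 0.012), which turned to 0.10 under library size scaling. Both shock changes were positive but not called under library size scaling (0.70 and 0.48) and in fits to the 4 plates compared. The call in T7 against T6 was lost without either plate of T6 or without the batch 1 plate of T7, with an adjusted p of edgeR of up to 0.16, and the call in T10 against T9 without either plate of T9 or the batch 1 plate of T10, with one of up to 0.18.

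Counted over the 9 loci, HIL1 and SSI2 made up 2 of the calls at T3 and at T4, and FAD6, FAD4, FAD3 and FAD8 the others. In T2 against T1, 1 of 9 was called lower and none higher, where 2.75% of all loci were called in either direction and 0.744% lower. In T3 against T1 it was 3 higher and none lower (41.7% of all loci called, 18.3% higher), and in T4 against T1 4 higher and 1 lower (42.3%, of which 18.8% higher and 23.5% lower). In T4 against T9 the count was 4 higher and 1 lower (43.0%, of which 18.7% higher and 24.2% lower), so 5 of 9 called is near the share of all loci. The median log2 change of the 9 loci in T4 against T9 was 0.72, and that of all loci -0.30. Under library size scaling 6 of 9 were called lower and none higher in T4 against T9, where 74.8% of all loci were lower, with a median of -1.03 for the 9 loci and -2.02 for all loci. Without the batch 1 plate of T4, edgeR called 2 of 9 in T4 against T9 and 2 of 9 in T4 against T1. Without the batch 1 plate of T1 it called 2 of 9 in T4 against T1 and 1 of 9 in T3 against T1. Summed leaf mesophyll markers moved in T4 against T9 as well, at 175480 and 128930 TMM-CPM at T4, against 35863 and 30776 at T9, and their part in these results was not tested.

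**Figure D2:**
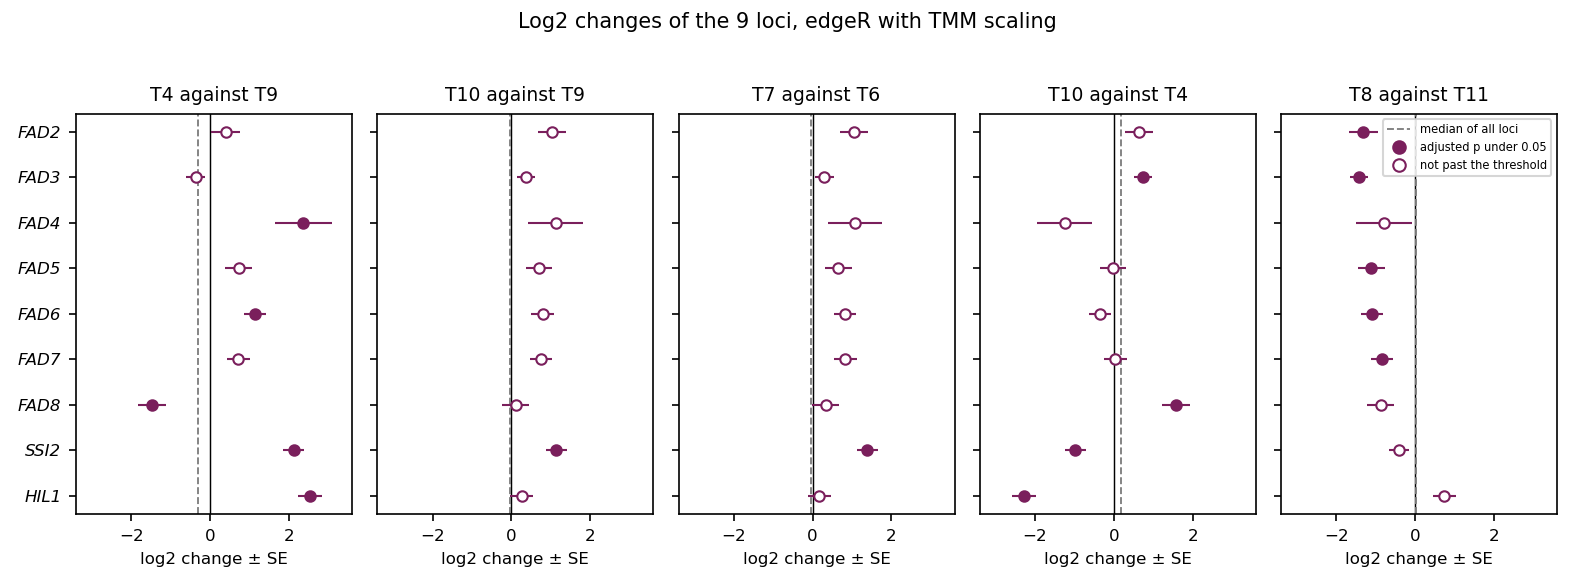
Log2 change ± SE (horizontal axis, edgeR with TMM scaling) of the 9 loci in 5 comparisons, with filled points where the adjusted p was under 0.05, a solid line at 0 and a dashed line at the median of all loci. HIL1 is at 2.54 in T4 against T9 and at 0.27 in T10 against T9, and 5 desaturases are filled and below 0 in T8 against T11. Under library size scaling FAD2, FAD5, FAD6 and FAD7 turn negative in T4 against T9, and in T10 against T4 FAD5, FAD6 and SSI2 turn positive. FAD3, FAD8 and HIL1 turn negative under it in T10 against T9 and T7 against T6, and SSI2 turns positive in T8 against T11.

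FAD4, which adds the trans double bond of plastid phosphatidylglycerol, had 199.9 and 112.9 TMM-CPM at T4, against 52.6 and 14.6 at T9 and 24.1 and 39.8 at T1. Its log2 change was 2.37 ± 0.72 in T4 against T9 (edgeR adjusted p = 0.016) and 2.06 ± 0.71 in T4 against T1 (edgeR adjusted p = 0.031), and under library size scaling 0.63 and 0.28, neither called. The T4 call against T9 was lost without either T4 plate or the batch 2 plate of T9, with an adjusted p of edgeR of up to 0.13, and the call against T1 without either T4 plate or the batch 1 plate of T1, with one of up to 0.23. FAD4 levels differed between batches at several time points. It had 101.2 and 21.2 TMM-CPM at T7, 133.6 and 21.9 at T10, 58.9 and 12.0 at T11, and 52.6 and 14.6 at T9, each time with the batch 1 plate higher. At T4 and T3 the batch 1 plate was also the higher, while at T1 and T8 it was the lower. In the sudden shock the FAD4 log2 change was 1.08 ± 0.70 in T7 against T6 and 1.12 ± 0.69 in T10 against T9, and neither passed.

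FAD6, the plastid enzyme that makes linoleate, had 1061.5 and 716.1 TMM-CPM at T4, against 434.5 and 365.5 at T9 and 440.3 and 510.1 at T1. The T4 plates did not overlap with either unheated group. The log2 change was 1.14 ± 0.28 in T4 against T9 (edgeR adjusted p = 0.0053), 0.87 ± 0.28 in T4 against T1 (edgeR adjusted p = 0.023) and 0.76 ± 0.28 in T3 against T1 (edgeR adjusted p = 0.042), all of which reversed under library size scaling, to -0.61, -0.97 and -0.83. Without the batch 1 plate of T4 the change against T9 was 0.94 (edgeR adjusted p = 0.055), and the change against T1 also lost its call without that plate or the batch 1 plate of T1, and the change in T3 against T1 without either T3 plate or the batch 1 plate of T1. Relative to the median of all loci FAD6 was 1.43 higher in T4 against T9. FAD5, which starts desaturation of galactolipid palmitate, had 398.8 and 189.2 TMM-CPM at T4, against 209.1 and 135.9 at T9, and its change of 0.72 ± 0.34 did not pass. FAD7 had 482.2 and 281.1 TMM-CPM at T4, against 277.8 and 181.3 at T9, and its change of 0.72 ± 0.29 missed the threshold (edgeR adjusted p = 0.055). Both reversed under library size scaling, at -1.04 and -1.03.

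FAD8, known from Arabidopsis as the cold-responsive partner of FAD7, fell in T4 against T9 under both scalings. It had 28.8 and 27.8 TMM-CPM at T4, against 132.9 and 45.4 at T9 and 40.6 and 34.9 at T1. The change against T9 was -1.47 ± 0.35 (edgeR adjusted p = 0.0042), with -2.21 in batch 1 and -0.71 in batch 2, and -3.19 under library size scaling. Against T1 it was -0.39 ± 0.35 and did not pass. Without heat, FAD8 was 1.08 ± 0.34 higher at T9 than at T1, which did not pass either (edgeR adjusted p = 0.16). FAD8 at T10, with 128.7 and 57.4 TMM-CPM, was 1.58 ± 0.35 above T4 on the log2 scale (edgeR adjusted p = 0.0044), and 2.62 above it under library size scaling. The T9 plates themselves are far apart. Without the batch 1 plate of T9 the change in T4 against T9 was -0.99 (edgeR adjusted p = 0.070), and without the batch 1 plate of T4 -1.13 (edgeR adjusted p = 0.068).

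As a share of FAD7 counts in the same plate, FAD8 was 17.7% and 13.5% at T1, 25.3% and 18.9% at T2, 8.23% and 11.0% at T3, and 5.98% and 9.88% at T4. The T3 and T4 shares lie below those of every other plate. Back at 22 °C the share was 35.9% and 25.1% at T5, 41.9% and 25.1% at T6, and 47.9% and 25.0% at T9. At the end of the sudden shock it was 20.9% and 26.9% at T7 and 24.02% and 21.9% at T10, all above the T3 and T4 plates. On day 18 it was 23.1% and 27.2% at T8 and 27.4% and 24.01% at T11. These ratios are a description without a test, and they rest on the assignment of reads between 2 loci that are alike.

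**Figure D3:**
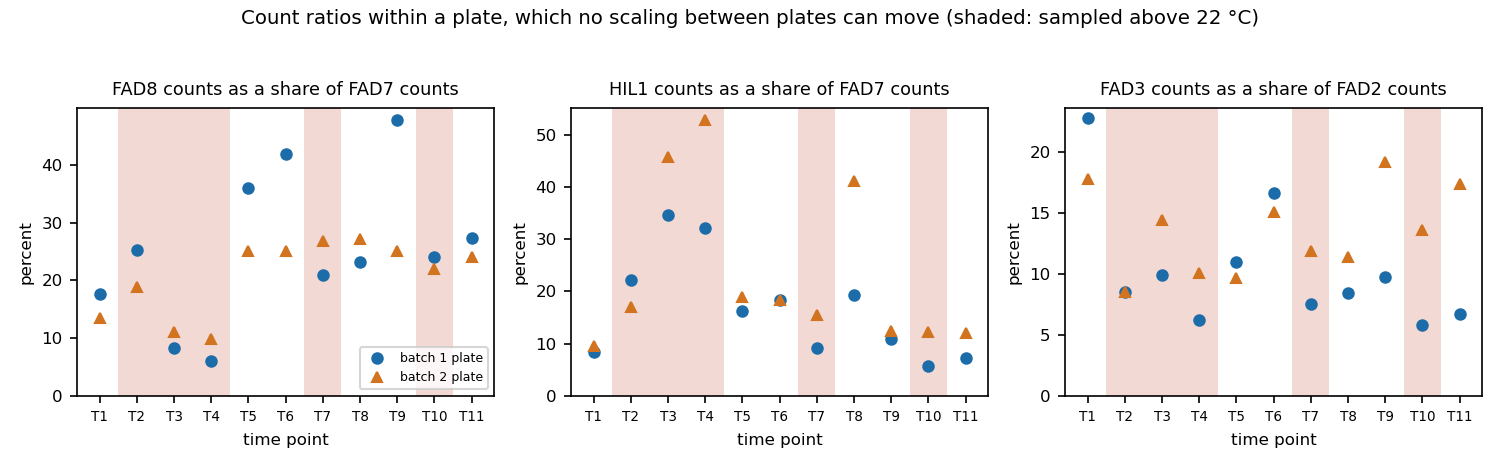
FAD8 counts as a share of FAD7 counts, HIL1 counts as a share of FAD7 counts and FAD3 counts as a share of FAD2 counts (vertical axes, percent, starting at 0) in every plate at T1 to T11, with circles for batch 1, triangles for batch 2 and shading above 22 °C. The FAD8 share is between 5.98% and 11.0% at T3 and T4 and at least 13.5% elsewhere. The HIL1 share is between 32.3% and 52.9% at T3 and T4, 19.3% and 41.3% at T8, and at or below 22.2% in all other plates.

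In the endoplasmic reticulum, FAD3 fell in T2 and T4 against T1 and FAD2 did not pass. FAD3, which makes linolenate there, had 41.7 and 59.2 TMM-CPM at T2, 67.2 and 90.0 at T3 and 47.3 and 75.5 at T4, against 105.2 and 101.9 at T1. The plates at T1 were above those at T2, T3 and T4 in both batches. The log2 change was -1.06 ± 0.23 in T2 against T1 (edgeR adjusted p = 0.021), the call named in the count above, -0.42 ± 0.23 in T3 against T1, which did not pass (edgeR adjusted p = 0.16), and -0.79 ± 0.23 in T4 against T1 (edgeR adjusted p = 0.014). The changes at T2 and T4 were larger under library size scaling, at -1.55 and -2.63. Against T9, with 68.6 and 88.6 TMM-CPM, T4 differed by -0.37 ± 0.23 and did not pass. FAD3 was also lower in unheated T9 than in T1, by -0.42 ± 0.23, which did not pass (edgeR adjusted p = 0.60), although the plates did not overlap. Hours of light and heat cannot be told apart in the changes against T1. The T2 call was lost without the batch 1 plate of T1 or without either plate of T2, with changes between -1.19 and -0.87 and an adjusted p of edgeR of up to 0.26. The T4 call was lost without the batch 1 plate of T4 (edgeR adjusted p = 0.14) or of T1 (edgeR adjusted p = 0.15).

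FAD2, which makes linoleate in the endoplasmic reticulum, had 765.1 and 751.0 TMM-CPM at T4, against 708.8 and 462.4 at T9 and 462.5 and 573.8 at T1. Its change was 0.39 ± 0.36 in T4 against T9 and 0.54 ± 0.36 in T4 against T1, neither called, and both reversed under library size scaling, at -1.34 and -1.28. FAD3 counts were 8.51% and 8.52% of FAD2 counts at T2, 9.87% and 14.4% at T3, and 6.18% and 10.05% at T4, against 22.7% and 17.8% at T1. The ratio at T1 was above that of T2, T3 and T4 in both batches. At T9 the ratio was 9.68% and 19.2%, which overlaps with T4.

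**Figure D4:**
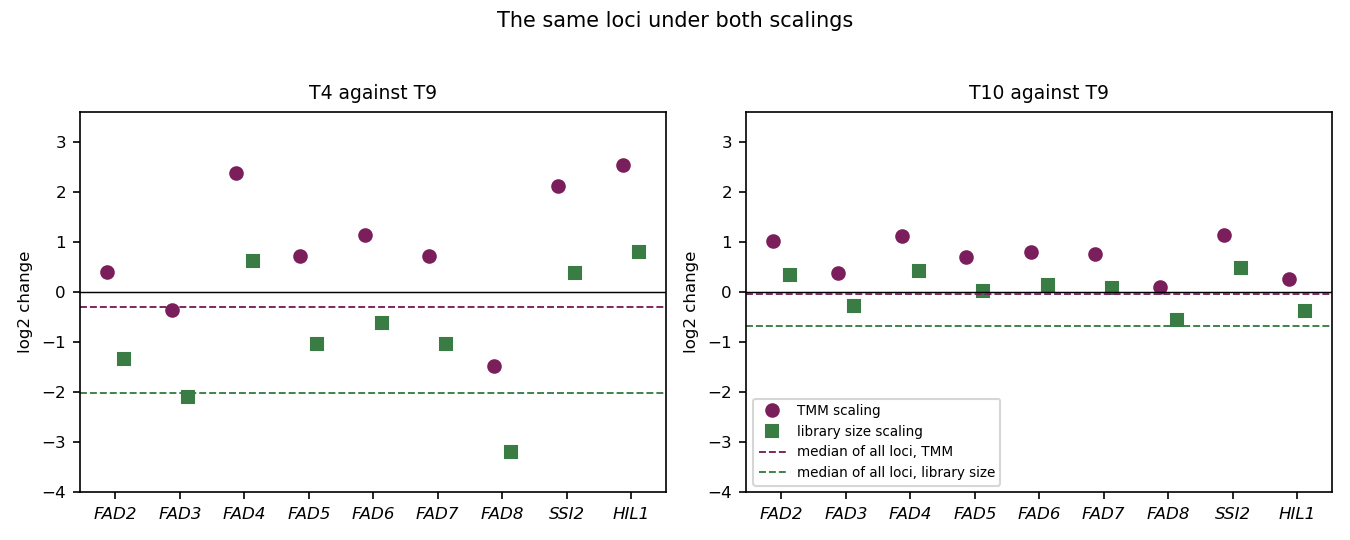
Log2 change of the 9 loci (vertical axis) in T4 against T9 and in T10 against T9 under TMM scaling (circles) and library size scaling (squares), with dashed lines at the median of all loci under each. In T4 against T9 all 9 loci move down with the median of all loci, which is -0.30 under TMM and -2.02 under library size scaling, and FAD2, FAD5, FAD6 and FAD7 change sign.

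Once acclimated plants were back at 22 °C, none of the 9 loci differed from never-heated plants past the threshold. In T5 against T9 edgeR called 0 of 9 (0.443% of all loci called), with 2 of 9 and 2221 of 20980 loci (10.59%) at an unadjusted p under 0.05. In T6 against T9 it also called 0 of 9 (0.0191%), with 2 of 9 and 6.35% of all loci at an unadjusted p under 0.05. DESeq2 called 0 of 9 in both. The HIL1 log2 change was 0.14 ± 0.29 in T5 against T9 and -0.03 ± 0.29 in T6 against T9. FAD7 had 173.5 and 109.1 TMM-CPM at T6, against 277.8 and 181.3 at T9, a change of -0.71 ± 0.29 (edgeR adjusted p = 0.71), and the groups did not overlap.

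The sudden shock called only SSI2 among the 9 loci, in acclimated and in non-acclimated plants, with the counts depending on the tool. In T7 against T6, 8.24% of all loci were called (4.46% higher), and in T10 against T9, 8.22% (3.76% higher). DESeq2 called 4 of 9 higher in each, adding FAD2, FAD6 and FAD7 to SSI2. The shares of all loci above are those of edgeR. That of DESeq2 is not given here, so its 4 of 9 cannot be set against a background. FAD2 had 1589.0 and 813.9 TMM-CPM at T10, against 708.8 and 462.4 at T9, and 940.5 and 742.2 at T7, against 392.0 and 411.7 at T6. Its edgeR log2 change was 1.03 ± 0.36 (edgeR adjusted p = 0.086) in T10 against T9 and 1.05 ± 0.36 (edgeR adjusted p = 0.081) in T7 against T6, and positive but uncalled under library size scaling. FAD6 changed by 0.79 ± 0.28 (edgeR adjusted p = 0.088) and 0.83 ± 0.28 (edgeR adjusted p = 0.078) in the same comparisons. The median change of the 9 loci was 0.75 in T10 against T9 and 0.83 in T7 against T6, with -0.04 and -0.03 for all loci. Under library size scaling the medians were 0.09 and 0.15 for the 9 loci and -0.69 for all loci in both.

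Acclimated and non-acclimated plants were not told apart at the end of the shock. In T7 against T10 edgeR called 0 of 9 (0.0572% of all loci called), with 1 of 9 and 7.80% of all loci at an unadjusted p under 0.05, and DESeq2 called 0 of 9. The change was -0.12 ± 0.29 for HIL1 and 0.14 ± 0.26 for SSI2. The shock response of acclimated plants minus that of non-acclimated plants was 0.25 ± 0.37 for SSI2, -0.09 ± 0.42 for HIL1 and between -0.07 and 0.23 for the FAD loci. EdgeR called 0 of 9 for that difference and none of all 20980 loci (0.0%), with 0 of 9 and 189 of all loci at an unadjusted p under 0.05, and DESeq2 called 0 of 9.

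Sudden and slow heat were compared directly in T10 against T4, in which 4 of 9 loci were called and 28.4% of all loci (16.2% higher and 12.1% lower). FAD3 and FAD8 were higher at T10 and SSI2 and HIL1 lower, with the SSI2 difference reversing under library size scaling. FAD3 had 91.9 and 110.5 TMM-CPM at T10, against 47.3 and 75.5 at T4, a change of 0.74 ± 0.23 (edgeR adjusted p = 0.028), and 1.81 under library size scaling. Under that scaling 6 of 9 were called higher and 1, HIL1, lower, with a median of 1.24 for all loci, of which 51.3% were called higher and 2.99% lower. Without the batch 1 plate of T4, edgeR called 1 of 9, and without the batch 2 plate of T10, 2 of 9. T10 and T4 plants differed also in age, in hours of light and in time spent in heat, which cannot be told apart from the speed of heating.

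On day 18, 5 of the 8 desaturases were lower in acclimated than in non-acclimated plants. In T8 against T11, 5 of 9 loci were called lower and none higher (27.3% of all loci called, 13.4% lower). FAD3 had 35.3 and 41.7 TMM-CPM at T8, against 85.4 and 123.0 at T11, a change of -1.42 ± 0.23 (edgeR adjusted p = 0.0013), with -1.27 in batch 1 and -1.56 in batch 2. FAD2 had 419.3 and 367.8 TMM-CPM at T8, against 1277.3 and 709.1 at T11, a change of -1.31 ± 0.36 (edgeR adjusted p = 0.017). FAD5 changed by -1.11 ± 0.34, FAD6 by -1.09 ± 0.28 and FAD7 by -0.84 ± 0.29, with adjusted p of edgeR of 0.028, 0.013 and 0.042. In each of these 5 loci the T8 plates lay below the T11 plates. In fits to the 4 plates compared all 5 calls were lost, FAD3 included (edgeR adjusted p = 0.0998).

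Among the other loci in T8 against T11, FAD8 changed by -0.87 ± 0.34 (edgeR adjusted p = 0.072) and SSI2 by -0.41 ± 0.26, while HIL1 had 27.2 and 34.1 TMM-CPM at T8, against 15.1 and 21.3 at T11. The HIL1 change was 0.74 ± 0.30 (edgeR adjusted p = 0.074), and 1.25 under library size scaling, where it was called (edgeR adjusted p = 0.019). Library size scaling called 2 of 9, HIL1 higher and FAD3 lower (-0.90), and the all-locus median moved to 0.54, compared with 0.01 under TMM. The split of all loci moved as well, from 2907 higher and 2819 lower to 5376 higher and 1228 lower. FAD2, FAD5, FAD6 and FAD7 kept a negative sign under that scaling without being called. Summed leaf mesophyll markers were 4992 and 10445 TMM-CPM at T8, against 33011 and 35445 at T11, and their part in these differences was not tested. Summed heat markers (HSP101, HSFA2 and HSP21) were 701 and 975 TMM-CPM at T8, against 5397 and 2135 at T11, and their part was not tested either. In the model of all plates, FAD3 was the locus that stayed called whichever of the 4 plates was left out. Without the batch 1 plate of T8 the count was 1 of 9, without the batch 1 plate of T11 2 of 9, and without the batch 2 plate of T8 3 of 9.

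Set against the state before the shock, neither kind of plant showed a called locus. In T8 against T6 edgeR called 0 of 9 (4.64% of all loci called), with 3 of 9 and 21.7% of all loci at an unadjusted p under 0.05, and DESeq2 called FAD3 lower. FAD3 had 35.3 and 41.7 TMM-CPM at T8, against 65.1 and 61.9 at T6, a change of -0.74 ± 0.23 (edgeR adjusted p = 0.082). In T11 against T9 edgeR also called 0 of 9 (6.69%), with 1 of 9 and 27.4% of all loci at an unadjusted p under 0.05, and DESeq2 called SSI2 higher. SSI2 had 233.8 and 212.7 TMM-CPM at T11, against 139.7 and 121.9 at T9, a change of 0.77 ± 0.26 (edgeR adjusted p = 0.082). The difference between these responses, T8 minus T6 less T11 minus T9, was compared after seeing the data, and edgeR called 0 of 9 (1.46% of all loci called), with 1 of 9, FAD3, and 22.4% of all loci at an unadjusted p under 0.05. Between the unheated samples, T9 against T1, edgeR called 0 of 9 (1.92%), with 1 of 9 and 11.0% of all loci at an unadjusted p under 0.05, and DESeq2 called 0. The member with that p was FAD8, at 132.9 and 45.4 TMM-CPM at T9, against 40.6 and 34.9 at T1.

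Over the 22 plates, with the mean of each batch removed, levels of FAD5, FAD6 and FAD7 ran together, with Pearson's r of 0.93 for FAD5 and FAD7 and 0.94 for both FAD6 pairs. FAD8 and FAD7 had r = 0.21 over all plates and r = 0.73 over the 18 plates without T3 and T4. HIL1 and SSI2 had r = 0.74 over all plates and 0.05 without T3 and T4. The tested loci most like HIL1 were AT1G71240 (r = 0.98, a locus with a domain of unknown function), the glutamate receptor GLUR2 (0.96) and AT5G25520 (0.96), which fell to 0.80, 0.68 and 0.63 without T3 and T4. The locus most like FAD7 was the photosystem II assembly factor HCF136 (r = 0.96), that most like FAD5 the one helix protein OHP (0.96) and that most like FAD4 catalase CAT2 (0.96). AT2G44920 was most like FAD6 (0.98), AT2G32640 most like FAD8 (0.91), the proteasome subunit locus AT2G32730 most like SSI2 (0.97), the ATP/ADP transporter ATNTT2 most like FAD2 (0.91) and phosphofructokinase PFK6 most like FAD3 (0.89). The plates share time points and scaling, and these values are a description without a p.

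Heat shock factors bind inverted repeats of nGAAn, and a window from 250 bases before to 50 bases after each annotated start was searched on both strands for GAANNTTC or TTCNNGAA. Such a pair was found in 19.3% of 27443 promoters, and a run of 3 units, GAANNTTCNNGAA or TTCNNGAANNTTC, which contains the pair, in 0.481%. Of the 9 loci FAD6 alone held the pair, starting 180 bases before its annotated start, and none held the longer run. The letters around it, with the pair in capitals, are shown from TAIR10.1 because FAD6 was among the loci called higher in T4 against T9 under TMM and lower under library size scaling.
FAD6 promoter, chr4:15060003-15060042, minus strand: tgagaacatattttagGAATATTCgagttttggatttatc
The window of HIL1, chr4:7877010-7877309 on the minus strand, held neither, which says only that these letters are not in this window.

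The other steps of leaf lipid metabolism were read from lists of loci. Of 10 other desaturases 9 were tested, and in T4 against T9 none was higher and 2 were lower, with a list median of -0.13 against -0.30 for all loci. In that comparison 18.7% of all loci were called higher and 24.2% lower, and under library size scaling 3.38% higher and 74.8% lower, with 5 of the 9 desaturases lower and none higher. ADS2, a desaturase known from Arabidopsis for cold tolerance, had 33.9 and 42.1 TMM-CPM at T4, against 193.4 and 195.9 at T9, a change of -2.36 ± 0.32 (edgeR adjusted p = 7.0e-05). ADS2 was also lower in T10 against T9, by -1.43 ± 0.30 (edgeR adjusted p = 0.015), at 64.6 and 80.0 TMM-CPM at T10. AT2G22890, annotated as a Kua domain protein, changed by -3.12 ± 0.58 in T4 against T9. Its levels were low, at 1.01 and 0.42 TMM-CPM at T4, against 4.85 and 7.24 at T9. ADS2 and AT2G22890 were lower under library size scaling too.

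Of 14 loci of plastid fatty acid synthesis and export, 9 were higher and 2 lower in T4 against T9, with a list median of 0.85, where 18.7% of all loci were higher and 24.2% lower. Under library size scaling 2 were higher and 9 lower, where 3.38% of all loci were higher and 74.8% lower. FaTA, a thioesterase that releases oleate for export, had 65.1 and 60.2 TMM-CPM at T4, against 9.37 and 9.05 at T9, a change of 2.76 ± 0.28 (edgeR adjusted p = 9.2e-06). LACS9, the plastid acyl-CoA synthetase, had 237.6 and 185.0 TMM-CPM at T4, against 21.9 and 40.1 at T9, and changed by 2.89 ± 0.46. Both stayed positive under library size scaling, at 1.03 and 1.12, while the thioesterase FATB changed by 0.91 ± 0.25 and reversed to -0.83. None of the 14 was called in T10 against T9 by edgeR (8.22% of all loci called), and 6 were lower in T8 against T11 (13.4% of all loci lower). The T8 against T11 count became 1 higher and 2 lower under library size scaling (25.6% and 5.85% of all loci).

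Of 16 loci of galactolipid and plastid lipid assembly, 4 were higher and 2 lower in T4 against T9, with a list median of -0.31. Of all loci, 18.7% were higher and 24.2% lower. Under library size scaling 1 of the 16 was higher and 15 lower, where 3.38% of all loci were higher and 74.8% lower. DGD1, which makes digalactosyldiacylglycerol, had 331.0 and 280.3 TMM-CPM at T4, against 45.0 and 41.6 at T9, a change of 2.82 ± 0.39 (edgeR adjusted p = 9.0e-05) and of 1.08 under library size scaling. AT1G27695, annotated as a glycine-rich protein, changed by 1.05 ± 0.28 and PGP1, which makes the precursor of phosphatidylglycerol, by 0.64 ± 0.19, and both reversed under library size scaling, to -0.68 and -1.09. None of the 16 was called in T10 against T9 (8.22% of all loci called). In T8 against T11, 5 were higher and 2 lower (27.3% of all loci called, 13.4% lower). Under library size scaling it was 5 higher and none lower (25.6% of all loci higher and 5.85% lower).

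Of 18 loci of triacylglycerol synthesis and lipid droplets, 3 were higher and 4 lower in T4 against T9, with a list median of -0.04. That is near the share of all loci, of which 18.7% were higher and 24.2% lower. Under library size scaling 2 of the 18 were higher and 14 lower, where 3.38% of all loci were higher and 74.8% lower. AT1G67360, annotated as a rubber elongation factor protein, a family found on plant lipid droplets, had 4414.9 and 2994.3 TMM-CPM at T4, against 25.3 and 13.7 at T9, a change of 7.59 ± 0.64 (edgeR adjusted p = 3.3e-06). It also rose in the sudden shock, to 1282.2 and 663.2 TMM-CPM at T10, a change of 5.64 ± 0.58 against T9, and these changes were 5.84 and 4.96 under library size scaling. DGAT2, which adds the last acyl chain of triacylglycerol, had 251.2 and 159.1 TMM-CPM at T4, against 23.0 and 17.6 at T9, and changed by 3.32 ± 0.43. LPAT2, an acyltransferase of the endoplasmic reticulum, changed by 1.85 ± 0.23, and by 0.11 under library size scaling. In T8 against T11, where 27.3% of all loci were called, 6 of the 18 were higher and 1 lower, which became 10 higher and 1 lower under library size scaling, with 25.6% of all loci higher and 5.85% lower.

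Of 10 other lipases and phospholipases 8 were tested, of which 1 was higher and 3 lower in T4 against T9 (43.0% of all loci called), with a list median of -1.30. Under library size scaling 1 was higher and 7 lower (3.38% and 74.8% of all loci). AT2G30550, annotated as DALL3, had 98.4 and 96.8 TMM-CPM at T4, against 12.7 and 14.2 at T9, a change of 2.86 ± 0.34 (edgeR adjusted p = 2.9e-05) and of 1.12 under library size scaling. Unlike HIL1 it was also called in T10 against T9, at 40.9 and 24.1 TMM-CPM at T10, by 1.28 ± 0.32 (edgeR adjusted p = 0.029), although the difference between these 2 loci was not tested. PLDDELTA, phospholipase D delta, changed by -1.80 ± 0.32 and AT1G51440 by -1.66 ± 0.49 in T4 against T9. AT1G51440 had low levels, at 0.81 and 0.84 TMM-CPM at T4, against 3.81 and 1.65 at T9. PLDALPHA1 changed by 1.04 ± 0.28 and AT1G06800 by 0.93 ± 0.27 in T10 against T9. With AT2G30550 they were the 3 higher loci of the list in the shock, where 3.76% of all loci were higher. These 3 were not called under library size scaling.

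**Figure D5:**
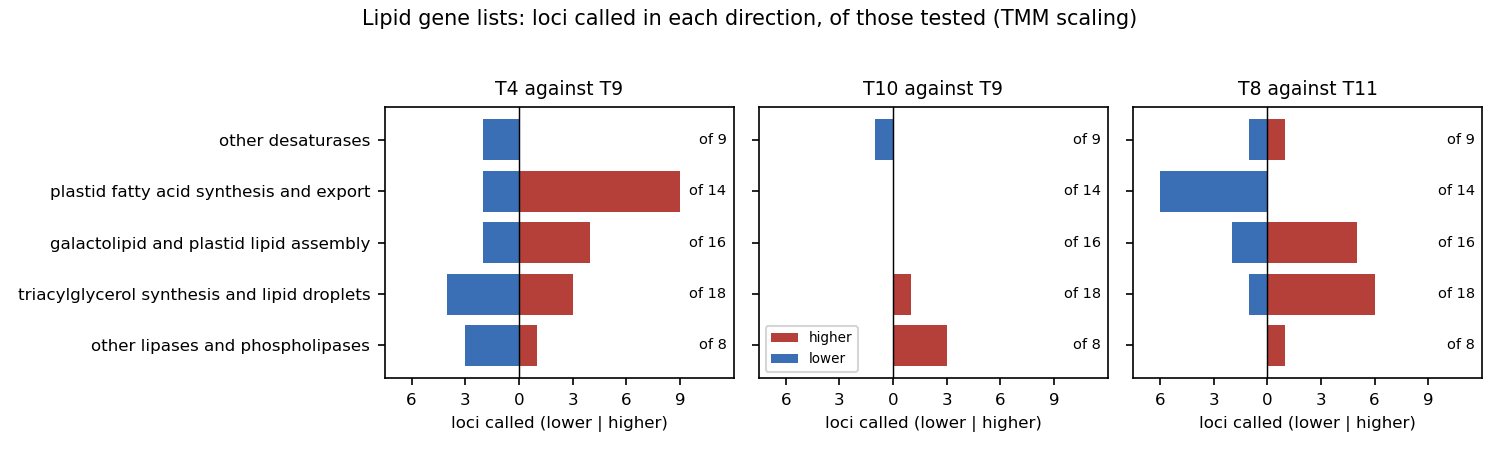
Number of loci called lower (left of 0) and higher (right of 0) by edgeR under TMM scaling in each of 5 lipid lists, in T4 against T9, T10 against T9 and T8 against T11, with the number tested at the right. Plastid fatty acid synthesis and export has 9 higher and 2 lower of 14 in T4 against T9, and none of 14 in T10 against T9. Under library size scaling its T4 against T9 count becomes 2 higher and 9 lower, where 3.38% of all loci were higher and 74.8% lower.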

How the data were processed

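Polyadenylated RNA of leaf tissue was sequenced from a stranded mRNA library kit, per the labels' protocols. The authors deposited raw counts, 1 table for each library. Per the submitters' processing notes, HTSeq, SAMtools, TopHat2 (2.0.14), Bowtie2 (2.1.0.0) and bcl2fastq (1.8.4) were used with the TAIR10 build. The 5 summary lines of each table name no gene, held 11.7% to 45.3% of records and were left out. The line for reads aligned to more than 1 place held 3.75% to 24.2% of records in batch 1 and 13.3% to 44.2% in batch 2. The authors' deposited log2 values for 18864 loci, whose normalization was not known here, served as an alternative, and 1 of their columns matched no sample and was not used.

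Tubes of a plate were summed and tested with edgeR 4.0.16 in R 4.3.3, by the quasi-likelihood test with TMM, filterByExpr with a smallest count of 10, and 1 model of all 22 plates with time point and batch, with 10 residual degrees of freedom. Benjamini-Hochberg adjustment ran over all 20980 loci tested, and called means an adjusted p under 0.05. Batch 1 holds the libraries whose titles start with p, and batch 2 the others. Each batch has 1 plate of each time point, so plates were paired by batch. Before summing, log2(CPM + 1) of the 2 tubes of a plate had Pearson's r from 0.90 (T6, batch 2) to 0.99 (T8, batch 1). At T5 of batch 2 it was 0.94. The p-values rest on a spread between plates pooled over all 11 time points after the batch term, not on the plates compared alone. Counts of at least 142 in every plate lay behind each of the 9 loci. Alternatives were library size scaling, DESeq2 size factors, no filter, no batch term, only the plates compared, the Wald test of DESeq2 1.42.0, limma 3.58.1 on the authors' values, and leaving out each plate. The code was tested on simulated data.

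The 9 loci, the lists and the markers were chosen with earlier results of these data known. Besides the 9 loci, the text names the 3 loci most like each, up to 3 loci with the smallest p per list in T4 against T9 and T10 against T9, and heat markers. Likeness used log2(TMM-CPM + 1) with batch means removed. Gene names, positions and sequences are RefSeq's for TAIR10.1, read with Biopython 1.88, and matched by locus number for 27998 of the 33602 loci.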

Additional observations from a re-analysis of the deposited data

Results flagged for a closer look

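Under TMM scaling the FAD3 and FAD6 differences after the shock had opposite signs in acclimated and non-acclimated plants, in both batches, and none of these changes passed the test. For FAD3 the log2 difference T8 minus T6 was -0.88 and -0.57 in acclimated plants, and T11 minus T9 was 0.31 and 0.47 in non-acclimated plants. The difference of these responses, a comparison added after seeing the data, was -1.13 ± 0.33 (SE, edgeR adjusted p = 0.077) and did not pass, where 1.46% of all loci did. For FAD6 the differences were -0.51 and -0.20 in acclimated plants and 0.18 and 0.26 in non-acclimated plants, with a difference of -0.56 ± 0.40 (edgeR adjusted p = 0.41). Under library size scaling the signs of FAD6 were alike, at -0.31 in T8 against T6 and -0.14 in T11 against T9, and those of FAD3 were -0.72 and 0.04.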

How the results depend on the processing

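Of the 25 changes called among the 9 loci, 25 stayed called with DESeq2 size factors and with the DESeq2 Wald test, 23 without the filter on low counts, 17 without the batch term, 14 on the authors' log2 values, 13 in fits to the plates compared and 9 under library size scaling. HIL1 in T3 and T4 against T1, T4 against T9 and T10 against T4, SSI2 in T4 against T1 and T9, and FAD3 in T8 against T11 stayed called whichever plate of the comparison was left out, and the other 18 did not. With no replicate block, that is, without the batch that pairs the plates, edgeR called 0 loci in T2 against T1, 3 in T4 against T1 and 3 in T8 against T11, and the block changed no other count by over 1.5 times. Library size scaling called 7 in T3 against T1, 1 higher and 6 lower, where 3.63% of all loci were higher and 71.1% lower. It called 0 in T7 against T6 (1.55% of all loci higher and 19.3% lower) and 0 in T10 against T9 (1.43% and 20.0%). In T10 against T4 it called 7, 6 of them higher (51.3% and 2.99%), and in T8 against T11 2 (25.6% and 5.85%). The DESeq2 Wald test called 2 in T2 against T1, 4 in T7 against T6, 4 in T10 against T9, 1 in T8 against T6 and 1 in T11 against T9. Fits to the plates compared called 3 in T4 against T1, 0 in T7 against T6, 0 in T10 against T9, 1 (FAD7, lower) in T7 against T10, 2 in T10 against T4 and 0 in T8 against T11. The authors' values called 5 in T3 against T1, 0 in T10 against T9, 2 in T8 against T6 and 2 in T8 against T11. For DESeq2, the fits to the plates compared and the authors' values, the share of all loci is not given here. Leaving out a plate gave 0 to 1 calls in T2 against T1, 1 to 4 in T3 against T1, 2 to 6 in T4 against T1, 2 to 4 in T4 against T9, 0 to 1 in T7 against T6, 0 to 1 in T10 against T9, 1 to 3 in T10 against T4 and 1 to 4 in T8 against T11. Where this left a time point with 1 plate, that plate was taken to vary like the others. Library size scaling reversed log2 changes in T3 against T1 (FAD2 -1.25, FAD5 -1.10, FAD6 -0.83, FAD7 -1.21 and SSI2 -0.41), T4 against T1 (FAD2 -1.28, FAD5 -1.24, FAD6 -0.97, FAD7 -1.28 and SSI2 -0.20), T4 against T9 (FAD2 -1.34, FAD5 -1.04, FAD6 -0.61 and FAD7 -1.03) and T10 against T4 (FAD5 1.06, FAD6 0.75 and SSI2 0.10). These are the reversals of changes called under either scaling. Further changes had another sign under library size scaling without a call under either, among them HIL1 in T10 against T9 (0.27 to -0.38) and FAD4 in T3 against T1 (1.44 to -0.08). So did FAD3, FAD8 and HIL1 in T7 against T6, FAD3 and FAD8 in T10 against T9, and other changes not listed here. Among changes called under TMM or on the authors' values, the authors' values reversed T3 against T1 (FAD2 -1.24, FAD6 -0.88, FAD7 -0.84 and SSI2 -0.0093), T4 against T1 (FAD2 -1.10 and FAD6 -0.82) and T4 against T9 (FAD2 -1.15 and FAD6 -0.39), and the cause was not tested. They also changed signs without a call under either, as for FAD5 in T3 against T1 (0.48 to -0.65). Averaging tubes instead of summing them moved 2 of 55 ratios within a plate beyond the spread between plates.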
